A study of Mus musculus with 3 samples.

Results

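The genes described here encode the proteins that bring fatty acids into heart cells, store and release them as triglyceride, carry them into mitochondria and oxidise them. A fixed list of 31 gene symbols defined the group. Their members are all rows of a table of Yap1-bound regions whose gene list holds one of these symbols exactly. Of the 31 genes, 30 were listed to at least 1 region, against 49.9% of 21900 protein-coding RefSeq symbols (53.3% by symbol or synonym). The whole table listed 13464 genes, and the 30 genes together took 105 of its 22020 regions. Etfdh was the 1 gene without a region.

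The study mapped Yap1, a transcriptional co-activator, by chromatin immunoprecipitation and sequencing (ChIP-seq) in whole hearts of wild-type male C57BL/6J mice, whose age the labels do not state. One anti-Yap1 library came from hearts taken 7 days after transverse aortic constriction (TAC), which narrows the aorta and loads the left ventricle with pressure. The other came from hearts taken 7 days after a sham operation. The design names 3 mice per operation, and whether their hearts were pooled into the single library of each operation is unknown. The value columns carry an unexplained number after the operation (Sham2, TAC2), and they were matched to the libraries by the operation alone. Neither operation had a replicate library, so no difference was tested, and higher or lower compares these 2 libraries alone.

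The adult heart draws most of its energy from fatty acids. Lipoprotein lipase releases them at the vessel wall, carriers and binding proteins bring them to an acyl-CoA synthetase, and the carnitine shuttle moves the acyl groups across the mitochondrial membranes, where beta-oxidation shortens them step by step. Expression of many of these genes is driven by PPAR and ERR nuclear receptors, and pressure overload is known to lower fatty acid use in the heart. Yap1 does not bind DNA itself and is brought to it mainly by TEAD factors, often at sites shared with AP-1.

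Promoter sequences are shown for the members whose window held the core letters of a TEAD or AP-1 site, to set the letters under the mapped signal beside the values that follow. Windows ran from 250 bases before to 50 bases after the start site in RefSeq on GRCm38.p6, the assembly called mm10 elsewhere. RefSeq windows matched 25 of the 31 genes, with 30 windows in all, and a region listed for the gene lay over the start of 27 of these windows. The letters GGAATG, the TEAD core, were present on either strand in 4 of the 30 windows (13.3%), against 14.7% of all 32851 windows. The AP-1 letters TGANTCA, which read alike on both strands, were present in 2 of 30 (6.67%), against 7.81% of all windows. These shares lay near those of all windows. The ERR letters TCAAGGTCA and the PPAR direct repeat (the hexamer AGGTCA repeated with any 1 base between) were in none of the 30 windows, and in 0.423% and 0.0396% of all windows. No match overlapped another. Windows are written 5′ to 3′ on the strand of the gene, with the matched letters in capitals.
The Cpt1a window is chr19:3323051-3323350 on the plus strand, with the TEAD letters 152 bases before the start.
Cpt1a: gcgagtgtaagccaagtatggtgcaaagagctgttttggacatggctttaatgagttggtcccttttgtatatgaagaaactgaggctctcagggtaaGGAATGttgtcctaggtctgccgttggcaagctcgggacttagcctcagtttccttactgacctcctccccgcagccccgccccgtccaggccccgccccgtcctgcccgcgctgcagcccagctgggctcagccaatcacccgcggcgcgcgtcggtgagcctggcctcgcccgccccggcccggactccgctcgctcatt
The Acsl1 window is chr8:46470787-46471086 on the plus strand, with the TEAD letters 138 bases before the start.
Acsl1: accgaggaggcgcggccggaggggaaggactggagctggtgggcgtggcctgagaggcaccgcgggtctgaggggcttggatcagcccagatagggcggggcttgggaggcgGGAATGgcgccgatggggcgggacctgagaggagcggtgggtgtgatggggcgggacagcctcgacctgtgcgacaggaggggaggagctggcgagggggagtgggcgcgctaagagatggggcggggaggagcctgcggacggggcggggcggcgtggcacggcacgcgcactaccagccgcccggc
The Etfb window is chr7:43443822-43444121 on the plus strand, with the TEAD letters 146 bases before the start.
Etfb: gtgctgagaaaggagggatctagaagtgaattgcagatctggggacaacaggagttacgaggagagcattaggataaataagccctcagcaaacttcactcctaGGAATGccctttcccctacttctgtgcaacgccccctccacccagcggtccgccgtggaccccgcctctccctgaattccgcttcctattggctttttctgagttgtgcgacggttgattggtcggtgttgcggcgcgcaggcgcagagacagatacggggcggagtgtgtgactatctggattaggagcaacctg
The Slc27a1 window is chr8:71569347-71569646 on the plus strand, with the TEAD letters 212 bases before one of its starts.
Slc27a1: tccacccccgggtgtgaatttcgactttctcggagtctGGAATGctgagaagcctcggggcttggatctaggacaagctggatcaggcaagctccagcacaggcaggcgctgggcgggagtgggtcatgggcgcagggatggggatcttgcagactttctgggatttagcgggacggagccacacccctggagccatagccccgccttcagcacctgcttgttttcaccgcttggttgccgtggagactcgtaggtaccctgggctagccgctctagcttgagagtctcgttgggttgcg
The Plin5 window is chr17:56117499-56117798 on the minus strand, with the AP-1 letters 11 bases before one of its starts.
Plin5: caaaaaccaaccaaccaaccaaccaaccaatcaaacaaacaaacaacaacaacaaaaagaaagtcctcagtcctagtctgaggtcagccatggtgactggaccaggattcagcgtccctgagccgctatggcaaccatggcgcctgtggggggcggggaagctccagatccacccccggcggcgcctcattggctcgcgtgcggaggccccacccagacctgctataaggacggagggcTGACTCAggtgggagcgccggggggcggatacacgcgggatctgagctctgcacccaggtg
The Acadvl window is chr11:70015379-70015678 on the minus strand, with the AP-1 letters 16 bases after the start.
Acadvl: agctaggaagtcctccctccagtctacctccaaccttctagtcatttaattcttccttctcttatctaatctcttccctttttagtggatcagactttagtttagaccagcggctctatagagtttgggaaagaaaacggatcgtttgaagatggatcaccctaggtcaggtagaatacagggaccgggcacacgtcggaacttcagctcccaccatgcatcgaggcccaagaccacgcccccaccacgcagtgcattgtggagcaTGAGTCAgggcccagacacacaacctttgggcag
A match of letters is a description of the sequence and not a mapped site. Each of the 6 windows had a start inside a region listed for its gene.

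In its strongest region each of the 30 fatty acid genes had less Yap1 signal in TAC than in sham, and most had more signal there than the median listed gene. The signal of a gene is the authors' average signal, in their own units, over the region with the highest mean of both libraries. It had a median of 10.3 in TAC and 16.5 in sham over the 30 genes, against 9.31 in TAC and 13.1 in sham over all listed genes. By mean signal, 26 of the 30 lay in the upper part of the ranking, above the median gene, and their median percentile was 74.99. They also had more regions, with a median of 3 per gene against 1 over all genes, and choosing the strongest of several regions favours a high value. Region by region they were close to the rest, with a median average signal of 7.48 in TAC and 11.2 in sham over the 105 regions, against 7.46 in TAC and 10.6 in sham over all regions. The median of the maximum signal was 17 in TAC and 26 in sham over the 105, against 17 in TAC and 25 in sham over all. Of the 30 genes, 27 had 2 or more regions, against 48.8% of all listed genes, and 9 had 5 or more, against 6.11%. Their regions were longer, with a median of 3300 bp against 2115 bp over all regions.

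The ratio of TAC to sham is given as log2((TAC + 1)/(sham + 1)), which understates differences of weak regions. Its median was -0.62 over the 30 genes, a signal 1.54-fold higher in sham, against -0.50 over all genes, 1.41-fold higher in sham. All 30 genes had a ratio below 0, as had 95.5% of all genes. The ratio was below the median of all genes in 24 of them and above it in 6. A difference of at least 1.5-fold was met by 20 of 30 genes in the direction of lower signal in TAC, against 36.3% of all listed genes, and by 0 in the other direction, against 0.208%. Just inside this size lay Acsl1 at -0.59, and just outside it Eci2 at -0.58. How the libraries were scaled to each other is not known, so the ratios were also taken relative to the median of all genes. On that scale 0 of the 30 genes were 1.5-fold lower, against 1.05% of all genes, and 0 were 1.5-fold higher, against 2.76%. The median of the group less that of all genes was -0.13, and single genes ran from -0.39 at Cpt1a to 0.35 at Echs1 relative to all genes. These are whole hearts, in which fewer cells of a type and less Yap1 at the DNA of each cell cannot be told apart.

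**Figure D1:**
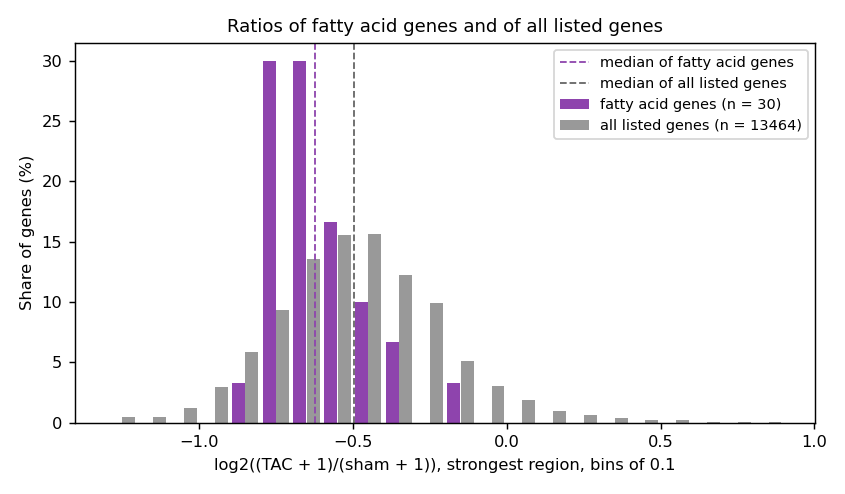
Share of genes (%) by log2 ratio of TAC to sham signal in the strongest region, in bins of 0.1, for the 30 fatty acid genes and all 13464 listed genes; the end bins also hold the 34 genes beyond the axis. The 2 bins from -0.8 to -0.6 hold 30% of fatty acid genes each, and dashed lines mark the medians of -0.62 and -0.50.

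Genes for uptake and activation of fatty acids had regions over their starts as well as away from them, and Yap1 regions ran along much of Cd36. Lpl, the gene of lipoprotein lipase, had an average signal of 11.3 in TAC and 18.6 in sham at chr8:68877465-68884522, a region of 7057 bp over its start (log2 ratio -0.67). Fabp3, the gene of the heart-type fatty acid binding protein, had 11.8 in TAC and 18.8 in sham in a region 9207 bp upstream (-0.63). Its start was covered by a region of 9554 bp with 9.98 in TAC and 17.4 in sham (-0.75). Both of these Fabp3 regions were called in each library. By average signal the upstream region was the stronger. The maximum was 28 in TAC and 48 in sham there, and 27 in TAC and 76 in sham over the start. Fabp3 had 4 regions, of which 2 were called in TAC. Those 6460 bp upstream (-0.07) and 7010 bp downstream (-0.36) of its start were called in sham only. Acsl1, whose product couples fatty acids to coenzyme A, had 10.2 in TAC and 15.8 in sham over its start (-0.59). It had 7 regions, and 2 of them were called in TAC. Slc27a1, which encodes fatty acid transport protein FATP1, had 11.3 in TAC and 16.0 in sham (-0.46), but that region lay 22883 bp downstream of its start and spanned the start of Pgls. Over its own start Slc27a1 had 7.34 in TAC and 13.0 in sham (-0.75) and no call in TAC.

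Cd36, which encodes the main fatty acid translocase of the heart, had 12 regions, more than any other gene of the group, and only 91 of all listed genes (0.676%) had as many. They covered 47284 bp of a stretch of 116664 bp. All 12 were called in sham, against 96.6% of all regions, and 6 in TAC, against 48.7%. The average signal at the strongest, 10434 bp inside the gene at chr5:17874595-17882455, was 8.79 in TAC and 14.1 in sham (-0.62). The region over the authors' start had 7.78 in TAC and 12.03 in sham (-0.57). RefSeq places a Cd36 start further into the gene, at base 17835896 of chromosome 5, where the region had 7.45 in TAC and 11.5 in sham. No single region dominated Cd36, and every one had less signal in TAC, with ratios from -0.98 to -0.43. Both ends of this range are regions called in sham only, which entered the table through the library in which they are high. The 6 regions called in both libraries ran from -0.71 to -0.45. Over all regions, 5.38% had a ratio above 0.

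**Figure D2:**
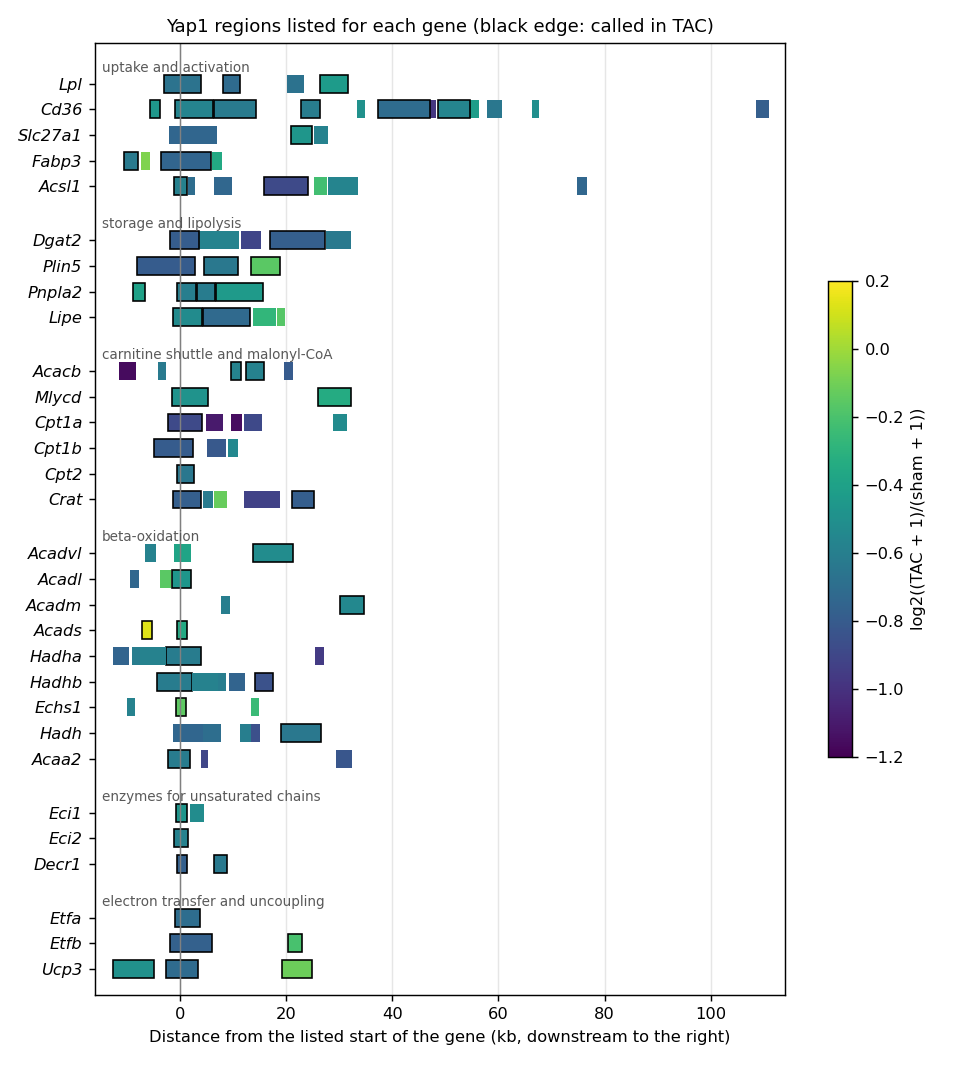
Yap1 regions listed for each of the 30 genes by distance from the authors' start (kb), coloured by log2 ratio of TAC to sham signal, with a black edge where the region was called in TAC. Cd36 has 12 regions, inside, upstream and downstream of its gene, while Cpt2, Eci2 and Etfa have 1 each, at the start.

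Triglyceride storage and release included the strongest signal of the group. Pnpla2, the gene of adipose triglyceride lipase, which starts the breakdown of triglyceride, had 19.2 in TAC and 29.7 in sham at chr7:141454580-141458139 (-0.61). This region spans its start, and its mean signal stood at percentile 99.7 of all listed genes. The region next to it had 10.7 in TAC and 16.9 in sham. All 4 Pnpla2 regions were called in TAC, but only 1 in sham, even though the average signal was higher in sham at each of them. The 1 with a sham call lay 7764 bp upstream, so the strongest region, over the start, had no call in sham. Plin5, which encodes a lipid droplet coat protein of oxidative tissues, had 14.1 in TAC and 22.6 in sham (-0.64). That region is 7734 bp downstream of its start and spans the start of its neighbour Plin4, and its maximum signal of 72 in TAC and 120 in sham was the highest of the group in both libraries. Over its own start Plin5 had 9.17 in TAC and 16.7 in sham (-0.80). Lipe, the gene of hormone-sensitive lipase, had 11.1 in TAC and 18.9 in sham inside the gene (-0.72), and 7.80 in TAC and 11.7 in sham over the start listed by the authors (-0.53), and another RefSeq start lies under the stronger region. Dgat2, which encodes an enzyme of the last step of triglyceride synthesis, had 9.34 in TAC and 16.9 in sham over its start (-0.79). By their strongest regions all 4 genes of this role were at least 1.5-fold lower in TAC, against 36.3% of all listed genes, and 0 of them relative to the median of all genes. By the mean over all regions of a gene, Dgat2 alone stayed past this size (-0.74), with Plin5 at -0.56, Pnpla2 at -0.52 and Lipe at -0.47.

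The carnitine shuttle held the 2 lowest ratios of the group, at Cpt1a and Cpt1b. Cpt1a, whose product attaches acyl groups to carnitine at the outer mitochondrial membrane, had 11.4 in TAC and 21.9 in sham at chr19:3321044-3327546 over its start. Its log2 ratio of -0.88, a signal 1.85-fold higher in sham, was the lowest of the 30 genes. Inside the gene the Cpt1a region at 10647 bp had 4.00 in TAC and 10.1 in sham (-1.15), and the one at 6502 bp had 3.73 in TAC and 9.18 in sham (-1.11). Of its 5 regions all were called in sham, and the one over the start was the only one called in TAC, so the low ratios inside the gene are those of regions taken in by their sham call alone. The muscle paralog Cpt1b had 9.40 in TAC and 17.1 in sham (-0.80) over its start, in a region listed for 3 genes. Cpt2, which hands the acyl group back to coenzyme A in the matrix, had a single region with 10.7 in TAC and 17.3 in sham (-0.65). Crat, the gene of carnitine acetyltransferase, had 10.5 in TAC and 18.7 in sham (-0.78), in a region that it shares with Ppp2r4.

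Acacb makes malonyl-CoA, the inhibitor of CPT1, at the mitochondrial surface and had no region over its start. It had 13.4 in TAC and 20.5 in sham in a region 10495 bp inside the gene (-0.57). That region was called in TAC only, although its average signal was higher in sham. A weaker region 9870 bp upstream had 4.13 in TAC and 10.5 in sham. At -1.16 that upstream region had the lowest ratio of all 105, but it was called in sham only and so entered the table through the library in which it is high. Among the 49 regions of the group called in both libraries the lowest ratio was that at the start of Cpt1a. Mlycd, whose product breaks malonyl-CoA down, had 11.7 in TAC and 15.2 in sham in a region 29144 bp downstream (-0.35). Over its start Mlycd had 6.73 in TAC and 9.78 in sham (-0.48). Both Mlycd values lay above the median of all genes (-0.50). The value over its start was level with the median over start regions of all genes (-0.48).

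**Figure D3:**
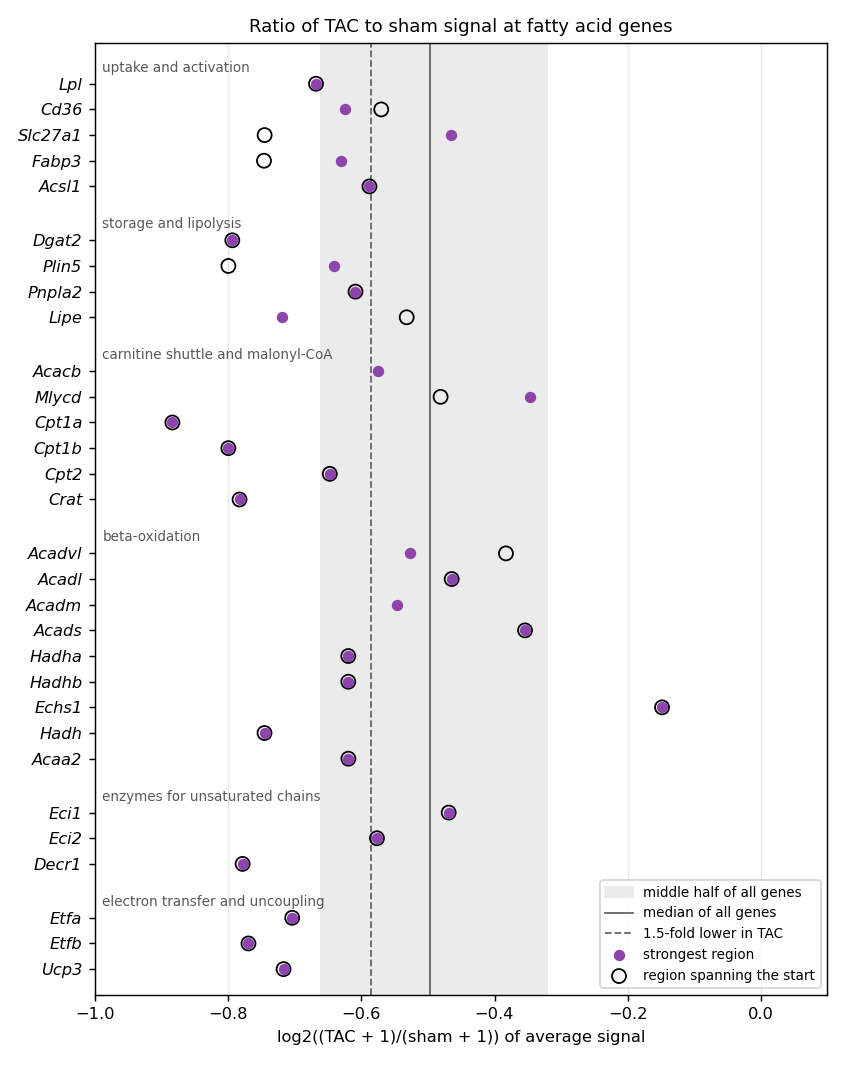
The log2 ratio of TAC to sham average signal in the strongest region (filled) and in the region over the authors' start (open) for each gene, with the median of all genes (-0.50, solid line), the band holding the middle 50% of all genes and the 1.5-fold size (dashed line). Cpt1a is lowest at -0.88 and Echs1 highest at -0.15.

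Ratios of the beta-oxidation genes ran from -0.75 at Hadh to -0.15 at Echs1. The chain-length series of acyl-CoA dehydrogenases, which carry out the first step, stood near or above the median ratio of all genes. Acadvl, for very long chains, had 8.71 in TAC and 11.7 in sham over its start (-0.38). A stronger Acadvl region, with 10.2 in TAC and 15.2 in sham (-0.53), lay 17532 bp away over the starts of Phf23 and Dvl2. Acadl, for long chains, had 8.52 in TAC and 12.1 in sham over its start (-0.46). Acads, for short chains, had 8.75 in TAC and 11.5 in sham over its start (-0.35). All 3 of these start regions lay above the median ratio over the start regions of all genes (-0.48), Acadl only just. By its strongest region Acadvl lay below the median of all genes (-0.50). Acadm, for medium chains, had no region over its start. Its strongest region, with 8.97 in TAC and 13.6 in sham (-0.55), lay 32470 bp away at Rabggtb, and a region 8618 bp inside Acadm had 5.23 in TAC and 8.47 in sham and no call in TAC.

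Hadha and Hadhb encode the subunits of the mitochondrial trifunctional protein and are divergent neighbours, with RefSeq starts 273 bases apart. They shared 4 regions, so they do not give separate values. The region at chr5:30150976-30157522 spans both starts and had 9.46 in TAC and 15.1 in sham (-0.62). Echs1, the gene of the short-chain enoyl-CoA hydratase, had 12.5 in TAC and 13.9 in sham at chr7:140115257-140117214 over its start. This was the highest ratio of the 30 genes, at -0.15. Hadh and Acaa2 had lower ratios than Echs1, as had all other genes of the group. Hadh, the gene of the hydroxyacyl-CoA dehydrogenase, had the weakest strongest region of the group by mean signal, with 6.57 in TAC and 11.7 in sham (-0.75). This Hadh region was called in sham only and so entered the table through the library in which it is high. Acaa2, the gene of the mitochondrial thiolase, had 12.8 in TAC and 20.2 in sham over its start (-0.62).

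Acads also held the 1 region of the 105 with more average signal in TAC. It lies at chr5:115124627-115126448, is 6224 bp upstream of Acads and inside the neighbouring gene Unc119b, and had 10.1 in TAC and 9.16 in sham (0.13). Its maximum was 24 in TAC and 18 in sham, and both libraries had a call. Over all regions, 5.38% had a ratio above 0, against 1 of 105 here.

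Enzymes for unsaturated chains were bound at their starts. Decr1, which encodes a dienoyl-CoA reductase, had 10 in TAC and 17.9 in sham (-0.78). Eci1, an enoyl-CoA isomerase gene, had 12.1 in TAC and 17.1 in sham (-0.47). Its relative Eci2 had 10.5 in TAC and 16.1 in sham (-0.58). Of these 3 genes, Decr1 alone passed 1.5-fold, against 36.3% of all listed genes, and Eci2 lay just outside this size.

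Electrons from the acyl-CoA dehydrogenases pass to the electron transfer flavoprotein, whose subunit genes were both lower in TAC. Etfa had a single region, with 7.48 in TAC and 12.8 in sham (-0.70), and Etfb had 9.53 in TAC and 17.0 in sham over its start (-0.77). Etfdh, whose product passes these electrons to ubiquinone, had no region. The nearest lay 11468 bp from the gene, was listed for Ppid and had 9.30 in TAC and 13.5 in sham. Ucp3, an inner-membrane carrier gene of muscle, had 8.83 in TAC and 15.2 in sham over its start (-0.72). A region 22049 bp downstream, which spans the start of Ucp2, had 11.4 in TAC and 12.4 in sham (-0.11), so neighbouring regions of this locus differed in ratio.

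**Figure D4:**
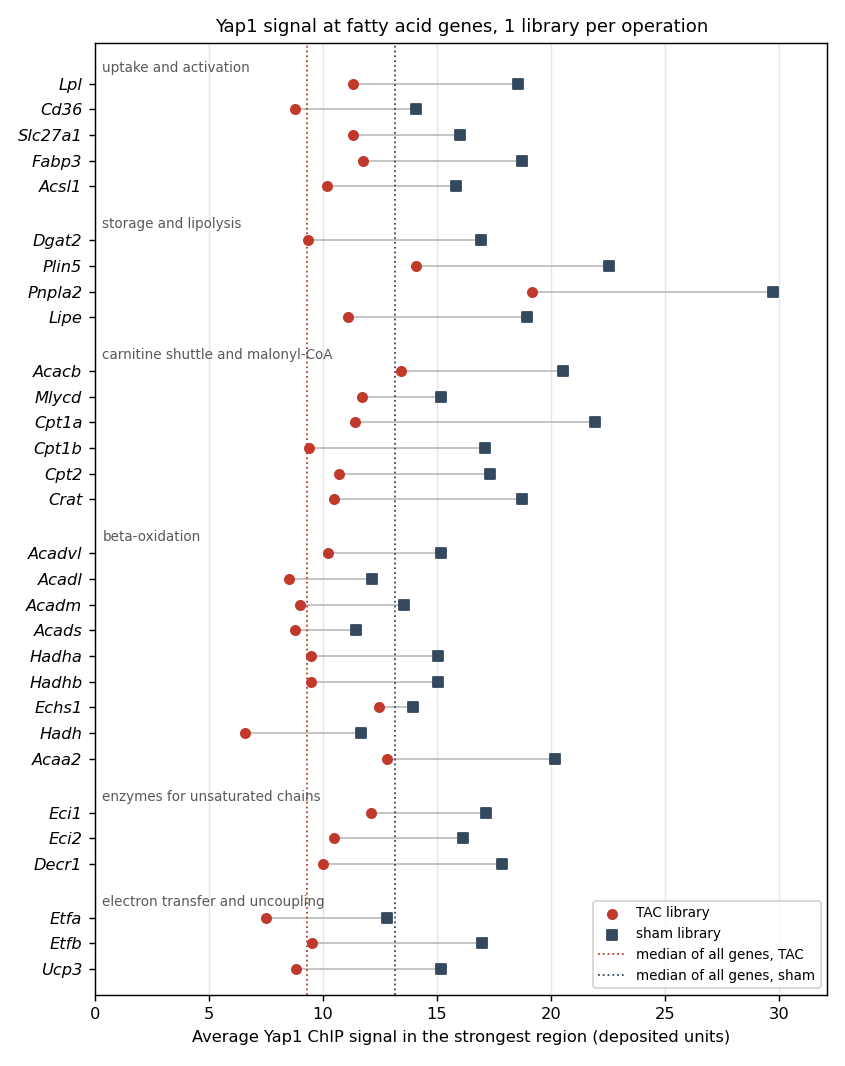
Average Yap1 signal in the strongest region of each of the 30 genes for the TAC library (circles) and the sham library (squares), in the authors' units, with dotted lines at the medians of all listed genes (9.31 in TAC, 13.1 in sham). Every TAC value lies left of its sham value, and Pnpla2 is highest in both libraries.

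Regions at the starts had a TAC call more often than the other regions of the same genes. A region was counted as spanning a start where the distance from its midpoint to the authors' start was no more than 50% of its length. By this measure 28 of the 30 genes had a region over their start, against 67.1% of all listed genes, and the strongest region was that one in 21 of 30, against 52.5%. The 28 start regions had a median signal of 9.46 in TAC and 16.0 in sham. The other 81 pairs of gene and region had medians of 6.28 in TAC and 10.1 in sham. A TAC call was present at 25 of the 28 (89.3%), against 68.2% of start regions of all genes, and at 30 of the 81 others (37.0%), against 46.5%. The median ratio hardly differed between these classes, at -0.63 over starts and -0.61 elsewhere, where all genes had -0.48 over starts and -0.54 elsewhere. Regions with no TAC call, more frequent away from the starts, entered the table through the library in which they are high. The ratios of these classes were therefore not selected alike. Away from the starts, weaker signal went with fewer TAC calls.

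Counted over all 105 regions, 62 (59.0%) were at least 1.5-fold lower in TAC, against 43.0% of all regions, and 0 were 1.5-fold higher, against 0.486%. Regions called in sham only entered the table through the library in which they are high, so a count over them partly follows from that selection. Among the 49 regions called in both libraries, a subset taken after seeing the data, 28 (57.1%) were at least 1.5-fold lower in TAC, against 32.0% of all regions called in both. Calls were present in TAC at 54 of 105 (51.4%), against 48.7% of all regions. Both libraries had a call at 49, against 45.3% of all regions, and sham only at 51, against 51.3%. Another 5 were called in TAC only, against 3.40% of all regions. The 5 regions called in TAC only were 3 at Pnpla2 and 2 at Acacb, and each had more average signal in sham. Among the 749 regions of the whole data set with this mark, 152 had at least as much average signal in sham, so the mark is not a measure of higher signal. The strongest region was called in TAC in 29 of the 30 genes, against 69.0% of all listed genes, and in sham in 28, against 97.5%. CpG islands were counted to 36 of the 105 (34.3%), against 36.0% of all regions. The strongest region was listed for 2 or more genes in 17 of 30, against 64.9% of all genes, and in 9 of 30 it did not span the start of the fatty acid gene itself.

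Another 50 genes of fatty acid metabolism, covering carriers, peroxisomal and ketone body enzymes, thioesterases, lipid droplet proteins and triglyceride synthesis, had a median ratio between that of these genes and that of all genes. Of them, 43 had a region, against 53.3% of protein-coding RefSeq symbols by symbol or synonym. At least 1.5-fold lower in TAC were 20 of the 43, against 36.3% of all listed genes. For Plin4 and Ucp2, 2 of the 43, the region is one already given for Plin5 and Ucp3. Their median log2 ratio was -0.57, and 28 of 43 lay below the median of all genes. The 3 lowest were Acsl6 with 3.66 in TAC and 8.75 in sham (-1.06), Plin2, a lipid droplet coat gene, with 6.78 in TAC and 14.0 in sham (-0.95), and Oxct1, the gene of the enzyme that activates ketone bodies, with 9.50 in TAC and 19.2 in sham (-0.94). The Acsl6 region, 48402 bp inside the gene, was called in sham only and so entered the table through the library in which it is high. Those of Plin2 and Oxct1 were called in both libraries. At the upper end was Acsl5, with 9.84 in TAC and 8.95 in sham (0.12). It was followed by Acad8 with 8.93 in TAC and 9 in sham (-0.01) and Agpat3 with 11.2 in TAC and 11.5 in sham (-0.03). Acad9, Decr2, Acsl3, Slc27a6, Fabp5 and Dgat1 were among those without a region.

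Markers of heart cell types, and of adipocytes, hepatocytes, skeletal muscle and leukocytes for comparison, were read in the same way. Over all protein-coding RefSeq symbols, 49.9% had a region. All 8 cardiomyocyte markers had a region, with a summed signal of 71.0 in TAC and 132 in sham and a median log2 ratio of -0.80. All 6 endothelial markers had one as well, with sums of 54.9 in TAC and 73.5 in sham and a median of -0.41, from Egfl7 at -0.76 to Tie1 at 0.19. For fibroblasts 3 of 6 had a region, with 23.8 in TAC and 29.6 in sham and a median of -0.26, while Col1a2, Dcn and Lum had none. The median of the fatty acid genes was -0.62. The part of cell composition in their ratios was not tested. Of the adipocyte markers, Cidec alone had a region (7.14 in TAC, 10.9 in sham), in a region listed for 2 genes, and Adipoq, Plin1, Cfd, Lep and Retn had none. Hepatocyte markers had a region in 3 of 6 (18.3 in TAC, 32.04 in sham, median -0.76), skeletal muscle markers in 2 of 6 (12.8 in TAC, 24.3 in sham, median -0.82) and leukocyte markers in 1 of 6, that of Cd68, which is listed for 8 genes (19.3 in TAC, 30.0 in sham, log2 ratio -0.61). The median ratios of the hepatocyte and skeletal muscle lists, over 3 and 2 genes, were thus close to that of the cardiomyocyte markers. They rest on Apoa1, Ttr and Fgb and on Tnnt3 and Ckm, in regions each listed for 2 or more genes. Of these regions only that of Ckm (-0.93) spanned the start of its marker. Whether their signal came from hepatocytes or skeletal muscle was not tested.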

How the data were processed

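Anti-Yap1 ChIP-seq was analysed for 1 TAC and 1 sham library; the pooled input was not analysed here. BWA, MACS 1.4.2 and mm10 are named in the submitters' processing notes. The deposited table gives, per the file headers, the average and maximum signal of each merged region in both libraries, a call mark, listed genes, distance to the start and position. The labels and headers state neither the scaling between libraries nor the peak threshold or read depth, so depth is unknown and no interval is given. A region entered the table through a call in at least 1 library.

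Coordinates are as the authors' table gives them. Ratios used a pseudocount of 1, and each gene was represented by its region of highest mean signal; the calculation was checked on simulated data (Python 3.11.15, pandas 2.3.3). All 31 members were named, with the 3 highest, the 3 lowest and the absent genes of a further list, of which 1 is not reported here. Other genes named are neighbours listed to the same regions or nearest to a gene. RefSeq symbols, starts and sequences came from GRCm38.p6. Members, lists and sizes were chosen with earlier results of these data known. Alternatives covered pseudocount, maximum signal, choice of region, region subsets and a 2-fold size.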

Additional observations from a re-analysis of the deposited data

How the results depend on the processing

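The median log2 ratio of the genes stayed below that of all genes in each of the 9 alternatives, with a difference of -0.16 to -0.10, and it moved by 0.1 or more only with a pseudocount of 5, to -0.50 (all genes -0.37). That pseudocount left 6 genes at least 1.5-fold lower in TAC in place of 20, and a 2-fold size left 0. Only regions listed for 1 gene left 16 genes with a region, of which 12 were 1.5-fold lower. The shares of all genes at these settings are not given, so these counts cannot be set against them. By maximum signal 1 gene, Decr1, was 1.5-fold lower relative to all genes (log2 ratio -1.19). That setting left 19 of 30 genes below the median of all genes in place of 24, and the mean over all regions left 23. All other counts stayed within 1.5 times their value, and no gene's ratio changed sign under any alternative for single genes. Of the 30 single ratios, 25 moved by 0.1 or more with a pseudocount of 5, 16 by maximum signal, 10 with the mean over all regions, 6 with the region nearest the start and 0 with a pseudocount of 0.5. Of the 62 regions at least 1.5-fold lower, 28 were called in both libraries, a subset added after seeing the data. The cause of these moves was not tested. No paired analysis was possible because each operation had 1 library. Unknown depth and scaling limit every ratio.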

Other observations

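The height of a region, its maximum signal, did not always follow its average. At Decr1 the region over the start reached a maximum of 20 in TAC and 47 in sham, and the Acadm region at Rabggtb reached 26 in TAC and 53 in sham. The Cpt1b start region, by contrast, reached 42 in TAC and 51 in sham, although its average was among the lowest in ratio. Of the 105 regions, 5 had a higher maximum in TAC (4.76%, against 8.06% of all regions), at Fabp3, Acsl1, Plin5, Acads and Ucp3. The difference was largest in the region downstream of Ucp3 that spans the start of Ucp2, with 41 in TAC and 28 in sham, where the average was 11.4 in TAC and 12.4 in sham. The upstream Acads region had 24 in TAC and 18 in sham, and the Plin5 region 16090 bp downstream of its start had 29 in TAC and 28 in sham.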
